A study of Rattus norvegicus with 24 samples.

Results

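The Notch pathway genes described here were Heyl, Hey1, Hes1, Notch1, Notch2, Notch3, Jag1, Jag2, Dll1 and Dll4, 10 of the 14324 genes that the array annotation named. They were taken by symbol from a list drawn up with earlier results of these arrays known. Where a gene had several transcript clusters (the probe groups that the array summarises into 1 value), the cluster of highest mean signal across all 24 arrays was to stand for it, but each of the 10 genes had exactly 1 cluster, so expression level chose none of them. The lithium-treated group was 6 male Wistar rats fed 40 mmol lithium per kg of food for 7 days and then 60 mmol per kg up to 6 months, with a salt block. The control group was 6 male Wistar rats on standard diet for the same 6 months. Renal cortex and renal medulla of the same 12 animals were hybridised to Affymetrix rat arrays, 1 array for each tissue of each animal, and animals are called here by the numbers in the labels. Each sample was a piece of whole tissue that holds many cell types, so fewer cells of a type and less RNA per cell cannot be told apart in any value below.

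Notch signalling passes between touching cells. A ligand of the Jagged or Delta-like family on 1 cell binds a Notch receptor on its neighbour, the receptor is cut by an ADAM protease and then by gamma-secretase, and its intracellular part enters the nucleus and joins the DNA-binding protein Rbpj to switch on genes of the Hes and Hey families, which are transcriptional repressors. In the mouse collecting duct, Notch signalling favours the principal cell, which reabsorbs water and sodium, over the intercalated cell, which handles acid and base. Notch receptors and ligands also act in blood vessels, with Dll4 and Jag1 in endothelium and Notch3 and Heyl in the mural cells (smooth muscle and pericytes) around it.

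The promoter sequences of Heyl and Hes1 are shown because Heyl was the member whose signal passed the test and Hes1 is the best known Notch target, whose signal did not. Both are the 250 bases before the transcription start in RefSeq (rat build GRCr8), which held a promoter for 8 of the 10 genes. Capitals mark TGGGAA, the core of the site that Rbpj binds, searched on both strands.
Heyl (chr5:140793021-140793270, plus strand): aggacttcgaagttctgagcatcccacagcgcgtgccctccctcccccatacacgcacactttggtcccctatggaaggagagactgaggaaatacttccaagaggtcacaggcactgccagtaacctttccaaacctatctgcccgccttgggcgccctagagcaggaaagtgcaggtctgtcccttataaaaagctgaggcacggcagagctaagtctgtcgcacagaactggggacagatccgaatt
Hes1 (chr11:84213046-84213295, minus strand): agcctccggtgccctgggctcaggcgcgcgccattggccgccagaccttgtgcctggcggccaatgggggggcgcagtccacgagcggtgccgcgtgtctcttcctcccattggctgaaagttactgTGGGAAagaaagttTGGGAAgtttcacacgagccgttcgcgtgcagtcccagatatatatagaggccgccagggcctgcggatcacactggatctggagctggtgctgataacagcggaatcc
The Hes1 window held 2 copies, at positions -123 and -109 from the start site, 1 of them spelled GTGGGAA with the base before it, and the Heyl window held none. Of the 8 members with a promoter, 2 held TGGGAA, Hes1 and the ligand Dll1, which also had 2 copies. The window of Nrarp, a further Notch target, held none. TGGGAA occurred in 22.1% of the 33469 rat promoters of the same length and at least 2 copies in 2.71%. A match here is a description of letters and not of binding, and its absence says only that these letters are not in this window.

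The deposited values were log2 signal intensities from which the effect of scan date had been removed. Animal 17, a lithium-treated rat, had a cortex array that was alone in its scan group, and the values of that array equalled its group mean to within 6.67e-05 on the log2 scale. It carried no information of its own, so lithium-treated cortex had n = 5. Array medians lay between 5.75 and 5.83 in cortex and between 6.12 and 6.22 in medulla. A cluster was kept in a tissue if 4 or more of the 12 arrays there had a log2 value of 6 or above. In cortex and in medulla, 8 of the 10 Notch genes passed, and Hey1 and Dll1 failed, with 0 cortex arrays and 1 medulla array each at that level.

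Lithium was set against control in each tissue, and across the pathway the effect stood out for Heyl in the medulla. In medulla, 1 of the 8 Notch genes tested passed an adjusted p of 0.05 in limma, against a background of 1.19% of the 16025 clusters, and that gene was Heyl, which was higher in lithium-treated rats. In cortex, 0 of 8 passed, against a background of 0.574% of the 13766 clusters, with 2 of 8 at an unadjusted p under 0.05 (7.54% of all clusters). Without scan group in the fit, Dll4 passed in cortex (background 2.09%, or 1.1% with animal 17's cortex array left out) and Heyl and Notch2 passed in medulla (background 6.56%). Fits without scan group take no account of the degrees of freedom that its removal used, and in cortex they count the array of animal 17 as a replicate unless it is left out. In a fit of diet alone without moderated variances, at the limits on unadjusted p and fold that the study used to pick genes, 0 of 8 in cortex (background 1.18%) and 2 of 8 in medulla, Heyl and Dll4 (background 4.06%), were past them. In medulla, 4 of 8 had an unadjusted p under 0.05, 3 higher and 1 lower, with a background of 19.6%. The median log2 fold change of the 8 genes was 0.14 in cortex and 0.13 in medulla, and over all clusters it was 0.01 in cortex and -0.01 in medulla.

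**Figure D1:**
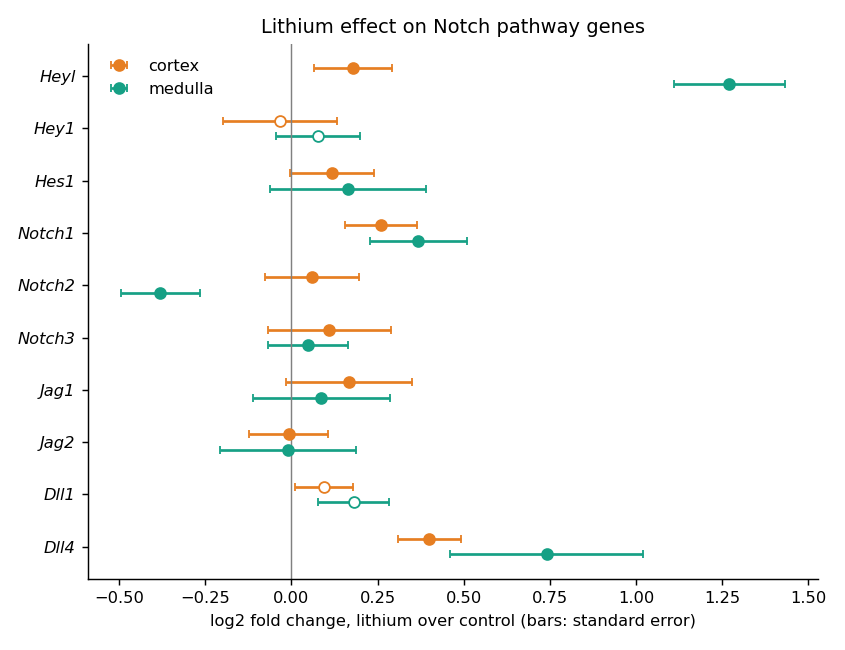
Change in log2 signal with lithium, lithium-treated over control (horizontal axis), for the 10 Notch pathway genes in cortex and medulla, with the standard error of the limma fit as bars and open circles for Hey1 and Dll1, which failed the filter on low signal. Heyl in medulla stands at 1.27 with a standard error of 0.161, and its cortex value is 0.18.

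Heyl encodes a Hey-family repressor known as a Notch target in vascular smooth muscle. In medulla its log2 signal was 7.82, 7.39, 7.60, 7.87, 7.93 and 7.81 in lithium-treated animals 6, 17, 18, 19, 21 and 22, against 6.35, 6.86, 6.25, 6.69, 6.67 and 5.99 in control animals 1, 13, 15, 16, 29 and 30. All 6 lithium-treated arrays lay above all 6 control arrays, and the gap between the nearest arrays was 0.53. Such a separation, in either direction, was seen in 3.71% of the clusters tested in medulla. Heyl averaged 7.74 ± 0.20 in lithium-treated medulla and 6.47 ± 0.32 in control medulla (SD, n = 6 each), a log2 fold change of 1.27 (2.41-fold, SE 0.161, adjusted p = 0.00549 in limma). Among the 16025 medulla clusters this was number 72 by size of change and number 16 by p. Leaving out any 1 of the 12 medulla arrays gave log2 fold changes between 1.15 and 1.37 and adjusted p between 0.0062 and 0.0269. Within the 3 scan groups of medulla arrays, each with 2 lithium-treated and 2 control rats, lithium-treated minus control was 1.00, 1.27 and 1.54.

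In cortex, Heyl was 6.95, 6.92, 7.28, 7.09 and 7.04 in lithium-treated animals 6, 18, 19, 21 and 22, against 7.20, 6.66, 6.89, 6.78, 6.86 and 6.88 in control animals 1, 13, 15, 16, 29 and 30. The groups overlapped, through control animal 1, which was higher than all but 1 lithium-treated array. The log2 fold change was 0.18 (SE 0.113, adjusted p = 0.770 in limma). The medulla effect exceeded the cortex effect by 1.09 on the log2 scale (SE 0.207, adjusted p = 0.0462 for the interaction in limma), a call that 0.0915% of 16388 clusters reached. This difference between the tissues was close to the threshold. It passed without scan group in the fit (adjusted p = 0.00232 in limma, background 2.18%, or 0.00556 and 0.958% with animal 17's cortex array also left out). It had an adjusted p of 0.157 in limma with each animal as a block (difference 1.18). That fit took the cortex scan groups, so animal 17, alone in its group, had no weight in it in either tissue. With each array centred on its median, the adjusted p was 0.0656 in limma (difference 1.04). The difference passed in 2 of the 12 fits that left out 1 animal, those without animal 13 (adjusted p = 0.0201) and without animal 17 (adjusted p = 0.0279). In the other 10 fits adjusted p ran between 0.0694 and 0.278.

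Set within each animal, Heyl signal in medulla minus that in cortex was 0.87, 0.68, 0.60, 0.85 and 0.77 in lithium-treated animals 6, 18, 19, 21 and 22. It was -0.85, 0.20, -0.63, -0.09, -0.19 and -0.88 in control animals 1, 13, 15, 16, 29 and 30. The medulla had the higher signal in every lithium-treated rat, and the cortex had it in 5 of 6 control rats. Lithium-treated animal 17, whose cortex value is the group mean, had 0.34, still above the highest control. The share of all clusters that separate the diets in this way was not counted. The pairing rests on the labels, since the medulla correlated most with the cortex of the same animal in 3 of 11 animals. The array medians were themselves higher in medulla, by 0.41 in lithium-treated and 0.36 in control rats, so the sign of each difference rests on this scale.

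**Figure D2:**
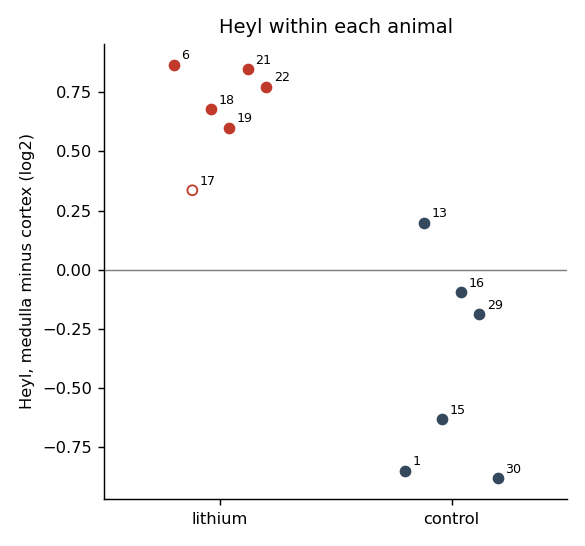
Heyl log2 signal in medulla minus cortex (vertical axis) for each lithium-treated and control rat, with animal numbers beside the points and an open circle for animal 17, whose cortex value is the group mean. All lithium-treated rats lie above the highest control rat, animal 13 at 0.20. The share of all clusters that separate the diets in this way was not counted.

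Of the other Hes and Hey genes among the members, Hes1 showed no change that passed the test, and Hey1 failed the filter. Hes1, the repressor through which Notch acts in many tissues, was 8.38, 7.74, 8.46, 8.09, 8.40 and 7.58 in the medulla of lithium-treated animals 6, 17, 18, 19, 21 and 22, against 8.64, 7.35, 7.81, 7.74, 8.09 and 8.03 in control animals 1, 13, 15, 16, 29 and 30. The ranges overlapped almost fully, and the highest and the lowest array were both controls. The Hes1 log2 fold change was 0.16 in medulla (SE 0.227, adjusted p = 0.717) and 0.12 in cortex (SE 0.122, adjusted p = 0.869, both limma). In cortex, Hes1 averaged 6.51 ± 0.16 in lithium-treated rats (SD, n = 5) and 6.40 ± 0.20 in control rats (SD, n = 6). Hey1, a paralogue of Heyl, reached the filter level on a single array, of control medulla. In medulla Hey1 ran between 5.68 and 5.97 in lithium-treated rats and between 5.50 and 6.11 in control rats. As Hey1 failed the filter, its values were not read as changes.

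**Figure D3:**
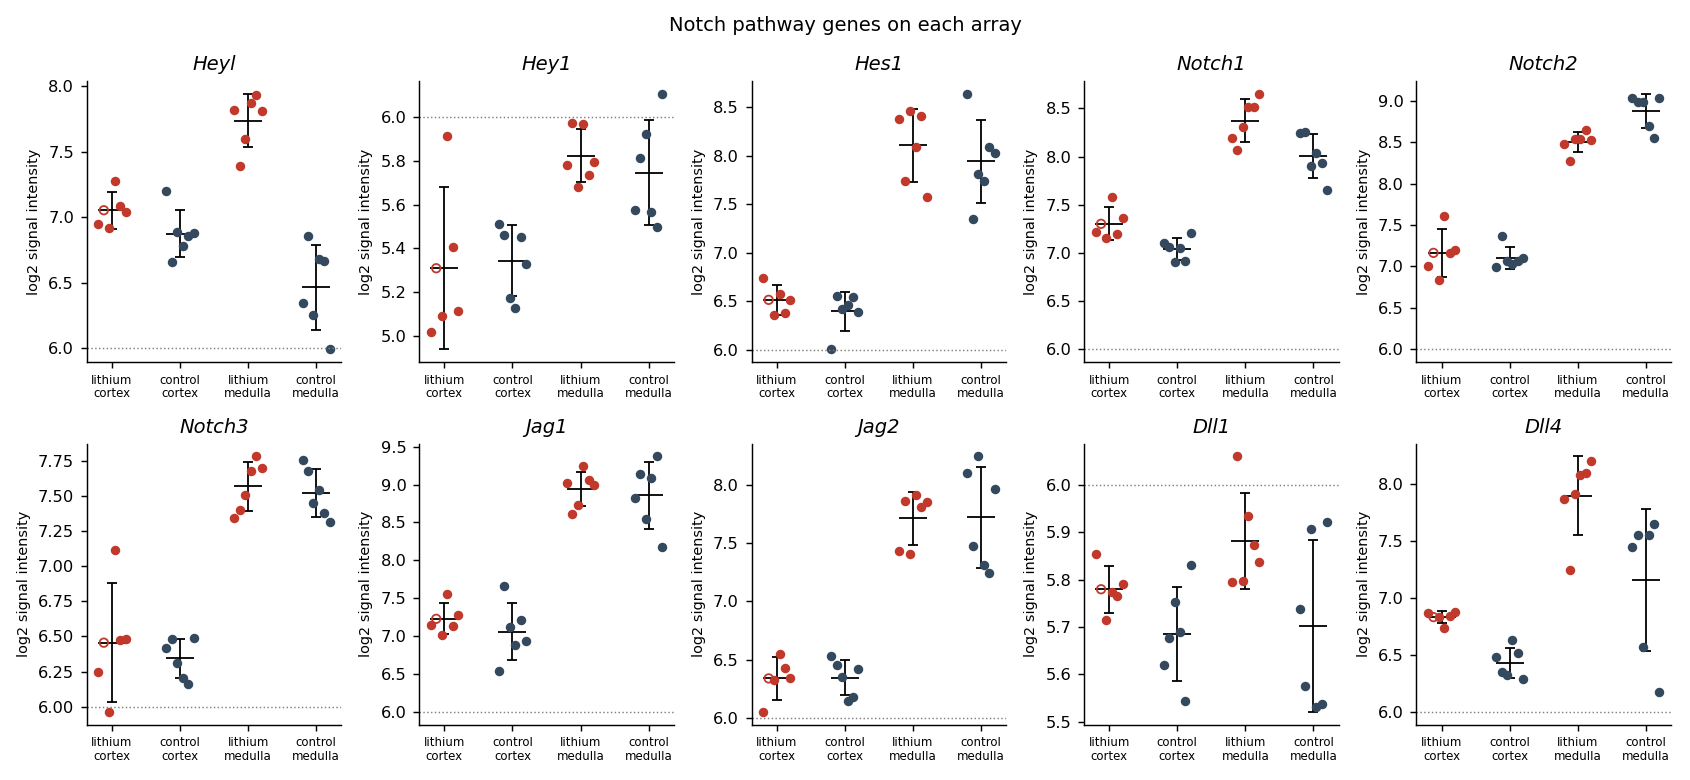
Log2 signal intensity (vertical axis, a separate scale for each gene) of the 10 Notch pathway genes on each array, as points by group with the group mean and SD in black, a dotted line at the filter level of 6, and an open circle for lithium-treated cortex array 17, which equals its group mean. Heyl in medulla and Dll4 in cortex are the panels in which the lithium-treated arrays all lie above the control arrays.

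Among the ligands, Dll4 had the clearest values. Dll4, a Delta-like ligand best known from sprouting endothelium, was 6.87, 6.84, 6.74, 6.84 and 6.88 in the cortex of lithium-treated animals 6, 18, 19, 21 and 22, against 6.48, 6.35, 6.33, 6.63, 6.52 and 6.29 in control animals 1, 13, 15, 16, 29 and 30. No cortex arrays overlapped, and the nearest were 0.11 apart. In cortex, 2.57% of clusters separated the groups in this way. The log2 fold change of Dll4 in cortex was 0.40 (SE 0.0906) and did not pass with scan group in the fit (adjusted p = 0.113 in limma), though it did without it (adjusted p = 0.0046, or 0.0182 with animal 17's cortex array also left out). Within the cortex scan groups that held both diets, lithium-treated minus control was 0.45, 0.31 and 0.45.

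In medulla, Dll4 was 7.87, 7.25, 7.91, 8.08, 8.10 and 8.20 in lithium-treated animals 6, 17, 18, 19, 21 and 22, against 7.45, 7.56, 6.57, 7.56, 7.65 and 6.18 in control animals 1, 13, 15, 16, 29 and 30. Of the 6 lithium-treated arrays, 5 lay above every control, and animal 17 lay below 4 of them. The spread between rats was wide, with 2 control rats, 15 and 30 far below the rest. The log2 fold change was 0.74 (1.67-fold, SE 0.279, adjusted p = 0.177 in limma), and within scan groups it was 0.05, 0.93 and 1.24. The difference of the Dll4 effect between the tissues was 0.34 (adjusted p = 0.671 in limma).

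The Jagged ligands gave small differences that did not pass, and Dll1 failed the filter. Jag1, a ligand of tubule and vessel wall, averaged 8.94 ± 0.23 in lithium-treated medulla and 8.86 ± 0.44 in control medulla (SD, n = 6 each), a log2 fold change of 0.09 (SE 0.200). In cortex the Jag1 log2 fold change was 0.17 (SE 0.183). Jag2 had a log2 fold change of -0.01 in both tissues, with standard errors of 0.114 in cortex and 0.198 in medulla. The adjusted p of Jag1 and Jag2 lay between 0.838 and 0.992 in limma. Dll1 reached the filter level on a single array, the medulla of lithium-treated animal 17 at 6.06, so its values were not read as changes.

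Of the receptors, Notch1 was on average higher and Notch2 on average lower in lithium-treated medulla, and neither passed. Notch1 was 8.19, 8.07, 8.30, 8.52, 8.52 and 8.65 in the medulla of lithium-treated animals 6, 17, 18, 19, 21 and 22, against 8.25, 8.26, 7.90, 8.04, 7.94 and 7.65 in control animals 1, 13, 15, 16, 29 and 30. The overlap came from lithium-treated animals 6 and 17 and control animals 1 and 13, which formed 1 scan group. In that scan group the difference was -0.12, and in the other two it was 0.44 and 0.79. The Notch1 log2 fold change was 0.37 in medulla (adjusted p = 0.179) and 0.26 in cortex (adjusted p = 0.598, both limma).

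Notch2, the main receptor of nephron formation in the mouse, was 8.48, 8.28, 8.55, 8.54, 8.65 and 8.53 in the medulla of lithium-treated animals 6, 17, 18, 19, 21 and 22, against 9.03, 8.99, 8.98, 8.70, 8.56 and 9.04 in control animals 1, 13, 15, 16, 29 and 30. Of the lithium-treated arrays, 5 lay below every control array, and animal 21 lay above control animal 29 only. The log2 fold change was -0.38 (SE 0.114, adjusted p = 0.116 in limma), with -0.63, -0.30 and -0.21 within scan groups, and it passed without scan group in the fit (adjusted p = 0.0418). In cortex Notch2 had a log2 fold change of 0.06, and the difference between the tissues was -0.44 (adjusted p = 0.355 in limma). Notch3, the receptor of mural cells, averaged 7.57 ± 0.18 in lithium-treated medulla and 7.52 ± 0.17 in control medulla (SD, n = 6 each), and its log2 fold change was 0.05 there and 0.11 in cortex. The cortex value rested on lithium-treated animal 19, at 7.12 against at most 6.48 in the other lithium-treated cortex arrays, and was -0.078 without it.

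Marker genes of other cell types are set beside these values, and their part in them was not tested. Of all clusters, 1.19% passed in medulla and 0.574% in cortex. The mean log2 signal of 11 mural cell markers in medulla ran between 7.00 and 7.47 in lithium-treated rats and between 6.87 and 7.46 in control rats, with 0 of 10 tested past the threshold. That mean averaged markers that went both ways, with an unadjusted p under 0.05 in limma for 3 that were higher and 2 that were lower. Of all medulla clusters, 19.6% had such a p. Tagln, a smooth muscle actin-binding protein, averaged 8.66 ± 0.36 in lithium-treated medulla and 7.85 ± 0.35 in control medulla (SD, n = 6 each), with 5 of 6 lithium-treated arrays above every control (log2 fold change 0.80, adjusted p = 0.0751 in limma, 0.0248 without scan group). Des, desmin, had a log2 fold change of 0.52, also with 5 of 6 arrays above every control (adjusted p = 0.113 in limma, 0.0433 without scan group). Pdgfrb, a pericyte receptor that is also on the list of other known Notch target genes, had -0.41 (adjusted p = 0.248 in limma). The defining mural gene at or below the filter level in both groups was Cnn1, with Lmod1 also below it in control medulla. The mean of 8 fibroblast markers ran between 7.28 and 7.82 in lithium-treated medulla and between 7.11 and 7.76 in control medulla, with 0 of 6 tested past the threshold and Lum and Postn under the filter level in both groups. The mean of 8 macrophage markers in medulla ran between 7.23 and 7.69 in lithium-treated rats and between 5.95 and 7.16 in control rats, without overlap, and 3 of 7 tested passed (Cd68, Mrc1 and C1qa, all higher), with Cd163 under the filter level in both groups. The mean of 10 endothelial markers in medulla ran between 8.18 and 8.69 in lithium-treated rats and between 8.54 and 8.96 in control rats. Of these, Cldn5, a tight junction protein, was higher by 0.54 (adjusted p = 0.0337), Emcn, a surface glycoprotein, was lower with a log2 fold change of -0.91 (adjusted p = 0.0462, both limma), and the median was -0.44. An unadjusted p under 0.05 in limma was found for 1 of the 10 that was higher and 5 that were lower (background 19.6%). Without scan group in the fit, 1 endothelial marker was called higher and 5 lower (background 6.56%). In cortex, lithium-treated animal 19, where Notch3 was highest, also had the highest mean of mural markers, 7.96 against 6.36 for the lowest lithium-treated array and a control range of 6.21 to 6.78. That array was also the highest for fibroblast markers, 8.63 against at most 6.94 in controls, and for macrophage markers, 7.79 against at most 6.53 in controls.

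Markers of the principal and intercalated cells of the collecting duct were read in the same way, and their link to Notch was not tested. The background of clusters past the threshold was 1.19% in medulla and 0.574% in cortex. Of 15 intercalated cell markers tested in medulla, 3 passed, all higher in lithium-treated rats: Oxgr1, the oxoglutarate receptor (log2 fold change 2.13), Slc4a9, a bicarbonate transporter (1.99), and Atp6v1g3, a proton pump subunit (1.10). All 15 had positive log2 fold changes, with a median of 1.29. The mean over the list of 17 ran between 8.57 and 9.26 in lithium-treated medulla and between 6.48 and 8.52 in control medulla, with Insrr under the filter level in both. The lowest control arrays were animal 30 at 6.48 and animal 15 at 7.05, the same arrays on which Dll4 was lowest. Heyl was also lowest among controls on these arrays, at 5.99 and 6.25, as were the mural means, at 6.87 and 7.23. Among lithium-treated medullas, animal 17 had the lowest Heyl, at 7.39, and the lowest mural mean, at 7.00. The arrays of animals 30 and 15 also had the lowest control means of other lists: 7.39 in animal 30 and 8.65 in animal 15 for 6 thick ascending limb markers (10.00 to 11.39 in the other controls), 7.56 and 7.89 for 12 proximal tubule markers, and 5.95 and 6.25 for the macrophage markers. Animal 17, where Dll4 was lowest among lithium-treated medullas, had the lowest lithium-treated means of thick ascending limb (6.23) and proximal tubule markers (6.85), while animal 30 had the highest mean of 7 inner medulla markers (9.24). Over the groups, all 12 proximal tubule markers had negative log2 fold changes in medulla (0 of 12 passed), with a mean of 7.61 in lithium-treated and 8.37 in control rats. The thick ascending limb mean was also lower with lithium, at 8.94 against 9.87 in control medulla, while Dll4 was on average higher. The thick ascending limb and proximal tubule lists were thus low together with Dll4 in animals 15, 17 and 30. Between the diets they went the other way from Dll4. The intercalated and macrophage lists were also lowest in animal 17 among lithium-treated medullas, at 8.57 and 7.23. Between the diets the intercalated and macrophage lists went the same way as Dll4. Their means were 8.95 and 7.41 in lithium-treated medulla and 7.73 and 6.63 in control medulla. Which list bears on Dll4 or Heyl was not tested. Of 11 principal cell markers tested, 0 passed in medulla, where log2 fold changes ran between -0.86 and 1.30 and 5 were positive. In cortex 5 of 11 passed as lower, among them Kcne1 (-1.70), Aqp2, the vasopressin-regulated water channel (-1.46), and Scnn1g, a sodium channel subunit (-1.44). Aqp4, the basolateral water channel, passed as higher there (2.17). In cortex 1 of 16 intercalated markers passed, Dmrt2 (0.68).

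**Figure D4:**
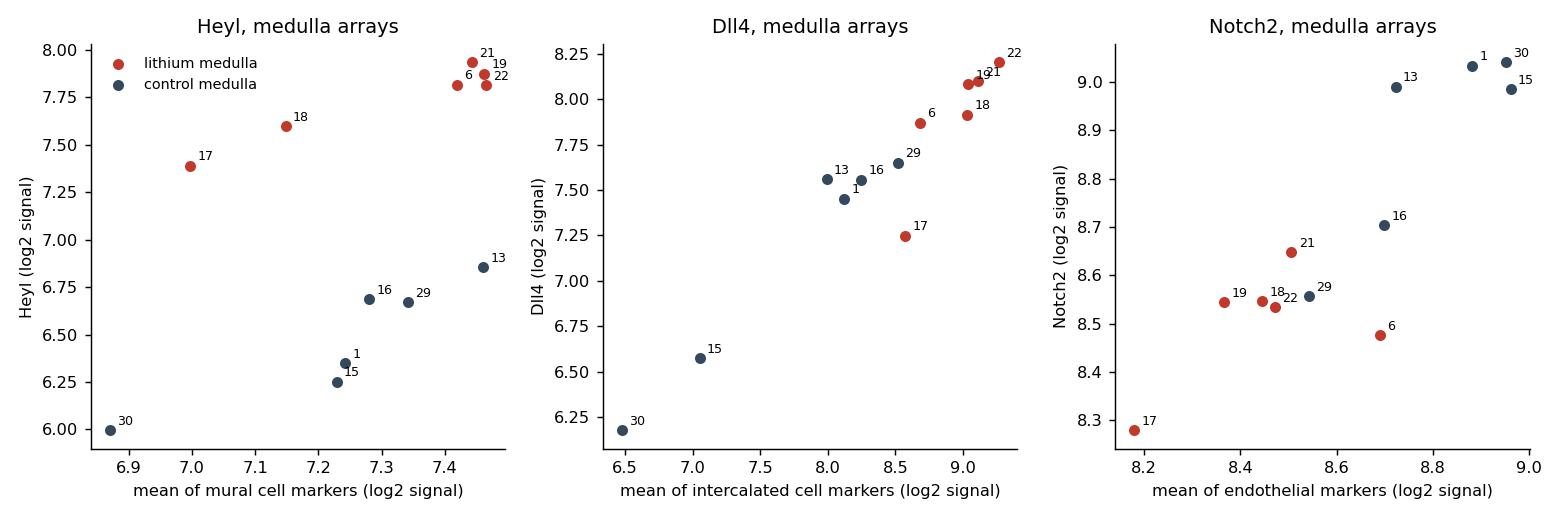
Log2 signal of Heyl, Dll4 and Notch2 on the 12 medulla arrays (vertical axes) beside the mean log2 signal of mural, intercalated and endothelial cell markers (horizontal axes), with animal numbers beside the points. The Heyl values separate lithium-treated from control rats. The mural means, which average markers that went both ways, overlap between the diets, and their part in Heyl was not tested. The lowest Dll4 values, in control animals 15 and 30, sit at the lowest intercalated means. Heyl was also lowest on the arrays of animals 15 and 30, which had the lowest control means of mural markers. Those arrays were also lowest among controls for thick ascending limb markers.

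Of 73 further Notch genes listed by step, 59 were named on the array and 48 in cortex and 53 in medulla were tested. In each tissue 1 of them passed, against a background of 0.574% of clusters in cortex and 1.19% in medulla. It was Cdkn1a, the cell cycle inhibitor p21, which many other signals also switch on. Cdkn1a averaged 8.78 ± 0.42 in lithium-treated medulla and 6.82 ± 0.43 in control medulla (SD, n = 6 each), a log2 fold change of 1.96 (SE 0.240, adjusted p = 0.00469 in limma). In cortex it averaged 8.09 ± 0.22 in lithium-treated rats (SD, n = 5) and 6.96 ± 0.17 in control rats (SD, n = 6), with a log2 fold change of 1.13 (adjusted p = 0.00165 in limma). The lithium-treated and control ranges did not overlap in either tissue, as in 2.57% of clusters in cortex and 3.71% in medulla. Of the rest, none passed with scan group in the fit. Without it, 2 of all 48 were called in cortex, both higher (background 2.09%). In medulla 1 of all 53 was then called higher and 1 lower (background 6.56%). In cortex 47 of 48 genes and in medulla 50 of 53 lay within 0.5 of zero on the log2 scale, with medians of 0.05 and -0.02. The medulla genes outside that range besides Cdkn1a were Ccnd1, cyclin D1, a listed target, and Furin. Ccnd1 averaged 9.73 ± 0.17 in lithium-treated medulla and 8.93 ± 0.81 in control medulla (SD, n = 6 each). Its log2 fold change was 0.80 (SE 0.323, adjusted p = 0.200 in limma), with overlapping groups. Efnb2, another listed target, ran between 6.58 and 6.73 in lithium-treated cortex and between 6.16 and 6.46 in control cortex, without overlap. In cortex, 2.57% of clusters separated the groups in this way.

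By step, Rbpj, the DNA-binding core of the nuclear complex, had a log2 fold change of 0.01 in cortex and -0.29 in medulla (adjusted p = 0.243 in limma). Nrarp, a direct target that feeds back on the receptor complex, had 0.12 in cortex and 0.21 in medulla. Hes5, another Hes-family repressor, had -0.12 in cortex and 0.18 in medulla. Of the proteins that cut the receptor, Furin, which processes it before it reaches the surface, had -0.66 in medulla (adjusted p = 0.159), and Psen2, a gamma-secretase subunit, had 0.33 (adjusted p = 0.171, both limma). Itch, a ubiquitin ligase that promotes Notch turnover, had -0.48 in medulla and passed without scan group in the fit only (adjusted p = 0.0388, against 0.106 with it, both limma). Notch4, the endothelial receptor, had 0.11 in cortex and 0.13 in medulla.

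**Figure D5:**
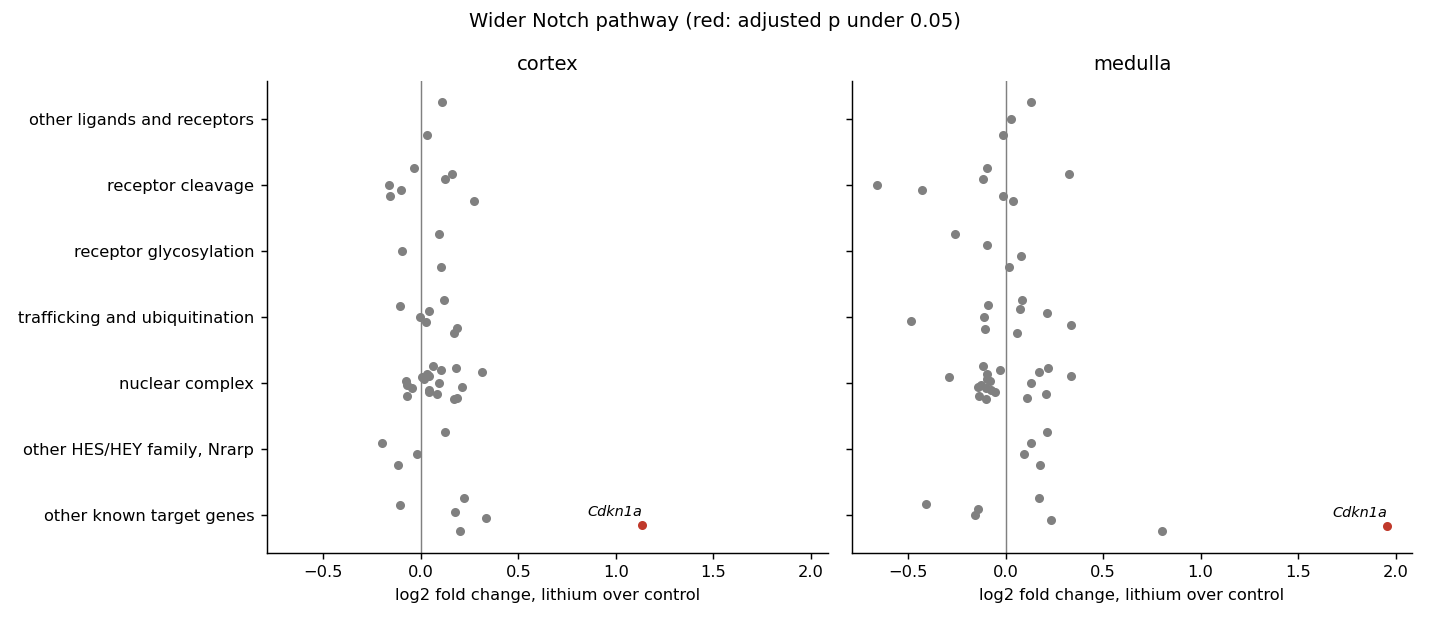
Change in log2 signal with lithium, lithium-treated over control (horizontal axes), for the other tested Notch genes, 48 in cortex and 53 in medulla, grouped by step of the pathway, with genes past an adjusted p of 0.05 in red. Cdkn1a stands apart in both tissues, at 1.13 in cortex and 1.96 in medulla, while most of the others lie within 0.5 of zero.

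Between the tissues of control rats, Jag1, Notch2 and Hes1 had the widest differences in signal, medulla minus cortex being 1.80 for Jag1, 1.78 for Notch2 and 1.55 for Hes1. Heyl was the member with a lower mean signal in control medulla than in control cortex, by 0.41, while the other 9 had a higher mean in medulla. In lithium-treated rats all 10 had a higher mean in medulla, Heyl by 0.68. These tissue differences were not tested, because the tissues appear to have been normalised apart.

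The genes whose deviations from the group means were most like those of a member, over the 23 arrays with values of their own, were found for each tested member by Pearson correlation across arrays, as a description. The arrays share animals and scan groups, so no p is given. For Heyl they were Hba-a3, a haemoglobin chain (r = 0.905), Olfml2b (0.883) and Cygb, cytoglobin, a globin of fibroblast-like cells (0.878). For Dll4 they were Rin2 (0.945), Prkag2 (0.940) and Atp6v0a4, a proton pump subunit that is also on the intercalated cell list (0.928). For Jag1 the first was Mme, neprilysin (0.946), for Notch2 Utrn, utrophin (0.904), for Jag2 Cbarp (0.903), for Notch1 N4bp2l1 (0.851) and for Hes1 Itgb1, integrin beta 1 (0.837). For Notch3 they were Gsn, gelsolin (0.881), Des, which is on the mural list (0.866), and Htr1b (0.860). Among the members themselves the highest correlation was between Notch1 and Notch3 (0.782), and Heyl and Dll4 had 0.744.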

How the data were processed

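Gene expression was measured in renal cortex and medulla of 12 rats on 24 Affymetrix arrays. For 28894 transcript clusters the authors deposited log2 signal intensity, made with RMA background correction, quantile normalisation and median polish. Partek, RMA and rn4 are named in the processing notes of the submitters. Scan date was removed by the authors with an analysis of variance of treatment and scan date in each tissue, which lowers the residual spread without lowering the degrees of freedom of a later test. With no dates used here, scan groups were recovered from the directions in which residuals had no variance and were not checked against dates. There were 4 groups in cortex (1 of a single array) and 3 in medulla.

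The platform annotation gave 1 symbol for 15097 clusters, several for 323 and none for 13474. Clusters at a log2 value of 6 or more on 4 or more of 12 arrays were kept (13766 in cortex and 16025 in medulla). Diets were compared with limma 3.58.1 in R 4.3.3, with diet and scan group in the fit and Benjamini-Hochberg adjustment over all clusters kept, at 0.05. The cortex array of animal 17 has no weight in this fit, but counts as a replicate in cortex fits without scan group, which were therefore also run without it, an alternative added after seeing the data. The interaction used all 24 arrays. The fits were tested on simulated data. Tables and figures were made with pandas 2.3.3, numpy 2.4.6 and matplotlib 3.10.9 in Python 3.11.15. Arrays give no counting depth, and the number of arrays limits the precision.

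The members and gene lists were chosen with earlier results of these data known. The genes named are the 10 members, up to 4 genes of each other list with the largest change past the threshold, and the 3 genes most like each member. Named outside this rule, after their values were seen, were Ccnd1, Efnb2, Tagln, Pdgfrb, Rbpj, Nrarp, Hes5, Furin, Psen2, Itch, Notch4 and the markers under the filter level. The pairing of cortex and medulla comes from the animal numbers in the labels. Over 11 animals the correlation of the paired deviations across clusters ran between -0.0867 and 0.438 and was over 0.1 in 6. In 3 of the 11 the medulla correlated most with the cortex of the same animal, so the pairing rests on the labels. The animal block was an alternative, as were fits without scan group, without moderation, with other filters and scalings, by a t-test, and without each array. The block fit took the scan groups of cortex, so animal 17 had no weight in it. The methods state a 2-way ANOVA, which the main fit follows, and the t-test is named only in the series' design text and the study's summary.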

Additional observations from a re-analysis of the deposited data

Results flagged for a closer look

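The effect of lithium on Heyl differed between the tissues, with the medulla effect exceeding the cortex effect by 1.09 on the log2 scale. The adjusted p was 0.0462 in limma, and 0.157 with the animal block, in which animal 17 had no weight.

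Single arrays stood apart from the rest of their group for 3 values among the 40 groups of member values looked at, and chance alone sets about 1 in 20 groups apart in this way. Dll4 in lithium-treated medulla was lowest in animal 17, at 7.25. Hes1 in control cortex was lowest in animal 1, at 6.01. Notch2 in control cortex was highest in animal 13, at 7.37.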

How the results depend on the processing

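The call of Heyl in medulla kept its direction and its side of the threshold under every alternative run there, with an adjusted p of 0.0486 without moderation as the highest. Counts of clusters called depended on scan group. In cortex 79 clusters were called, 288 without scan group, 296 by the t-test, 14 without moderation and 34 to 92 with 1 array left out. The 288 and 296 count animal 17's cortex array as a replicate, and without it they were 152 and 134. In medulla 190 were called (133 higher, 57 lower), 1052 without scan group (533 higher, 519 lower), 650 by the t-test (360 higher, 290 lower), 37 without moderation and 50 to 1053 with 1 array left out, the most without lithium-treated animal 6. Centring the arrays on their medians gave 101 higher and 96 lower. At the study's limits on unadjusted p and fold, by the t-test, 163 clusters were past it in cortex and 651 in medulla, among them Heyl and Dll4 in medulla. For the difference between the tissues, 15 were called, 9 with centring, 357 without scan group (157 without animal 17's cortex array too), 5 with the animal as a replicate block and 5 to 57 with 1 animal left out.

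Of the Notch genes, 0 were called in cortex, 1 without scan group and 1 by the t-test (Dll4 each time, and also 1 by each of them without animal 17's cortex array), and 0 to 0 with 1 array left out. In medulla 1 was called, 2 without scan group (Heyl and Notch2) and 1 to 1 with 1 array left out. For the difference between the tissues 1 was called (Heyl), 0 with centring, 0 with the replicate block and 0 to 1 with 1 animal left out.

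Directions turned only for members with changes under 0.12 on the log2 scale. In medulla Notch3 was -0.0069 with centring and Jag2 was 0.042 with repeated quantile normalisation. The difference of the Hes1 effect between the tissues was -0.000152 with centring. With 1 array left out, the ranges that crossed zero were -0.069 to 0.15 for Notch2, -0.0785 to 0.25 for Notch3 and -0.0669 to 0.14 for Jag2 in cortex, and -0.00595 to 0.11 for Notch3, -0.0828 to 0.22 for Jag1 and -0.13 to 0.12 for Jag2 in medulla. For the difference between the tissues they were -0.13 to 0.30 for Hes1, -0.0279 to 0.19 for Notch1, -0.19 to 0.0978 for Notch3, -0.22 to 0.0243 for Jag1 and -0.0844 to 0.13 for Jag2. No member had a further cluster to try. Hey1 and Dll1 signals under the filter level, 5 lithium-treated cortex arrays and 7 residual degrees of freedom in cortex limit what could be detected.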
